A study of Rattus norvegicus with 16 samples.

Results

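Proteasome genes were measured in organotypic hippocampal slice cultures of the rat, that is, thin slices of hippocampus kept alive in a dish. They were taken as all genes whose platform symbol begins with Psma to Psmg and a digit and whose probe set carries no other symbol. The rule gave 43 genes of 10411, on 46 probe sets of 15866; where a gene had several probe sets, the one with the highest mean over all arrays stood for it. Of the 43 genes, 13 encode the core (7 of the alpha ring, 4 structural and 2 catalytic beta subunits), 3 the catalytic subunits of the immunoproteasome, 14 the regulatory cap (5 ATPases, 3 other base subunits and 6 lid subunits) and 7 the assembly chaperones. The rest are the activator genes Psme1, Psme2 and Psme4, the regulator Psmf1, and Psmc3ip and Psme3ip1, which fall under the rule by name but are not subunits. Psmb6 and Psme3 were left out because their 5 probe sets also carry the symbols of other genes, as was 1 probe set shared by Psma3 and Psma3l.

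The study followed the response to oxidative stress over time, as its title states, in the hippocampal fields CA1 and CA3. RNA came from 8 groups of 2 arrays each: CA1 at T0, 30 min, 3 h and 12 h, and CA3 at the same 4 times. The labels call the 2 arrays of a group biological replicates; whether they came from separate animals or cultures, the strain, age, agent and dose, and how T0 relates to the treatment, are not stated by those labels, and p-values measure the spread between these arrays. Every value is a log2 signal on 1 of 16 Affymetrix arrays, and in each list of arrays replicate 1 comes before replicate 2 and CA1 before CA3. A slice holds neurons, glia and microglia together, so fewer cells of a type and less RNA per cell cannot be told apart.

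The proteasome is the barrel-shaped protease that degrades proteins marked with ubiquitin in the cytosol and nucleus. Its core is built of alpha rings, which gate the entry, and beta rings, which hold the catalytic sites; a cap of ATPases and lid subunits binds, unfolds and feeds in the substrate. Under interferon, and in immune cells such as microglia, the catalytic subunits encoded by Psmb5, Psmb6 and Psmb7 are replaced by those of Psmb8, Psmb9 and Psmb10, and the PA28 activator encoded by Psme1 and Psme2 can take the place of the cap, a form known for making peptides for MHC class I molecules.

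The promoters of the 5 genes of the immunoproteasome and PA28 are shown because this class had the lowest median difference from T0 described in what follows. Each runs from 250 bases before the RefSeq transcription start to 10 bases after it (GRCr8), and capitals mark matches on either strand to the interferon-stimulated response element (GAAA, any 2 bases, GAAA) or to TTCNNNGAA, the interferon-gamma activated site. Psmb8 lies at chr20:4657022-4657281 on the minus strand, Psmb9 at chr20:4668750-4669009 on the plus strand, Psmb10 at chr19:50743283-50743542 on the minus strand, Psme1 at chr15:33038721-33038980 on the plus strand and Psme2 at chr15:33052742-33053001 on the minus strand.
Psmb8: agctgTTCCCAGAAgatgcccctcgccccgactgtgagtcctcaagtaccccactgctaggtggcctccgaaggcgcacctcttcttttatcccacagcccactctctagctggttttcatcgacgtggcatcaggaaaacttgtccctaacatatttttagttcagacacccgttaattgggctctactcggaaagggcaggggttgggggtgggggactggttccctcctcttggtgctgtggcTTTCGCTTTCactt
Psmb9: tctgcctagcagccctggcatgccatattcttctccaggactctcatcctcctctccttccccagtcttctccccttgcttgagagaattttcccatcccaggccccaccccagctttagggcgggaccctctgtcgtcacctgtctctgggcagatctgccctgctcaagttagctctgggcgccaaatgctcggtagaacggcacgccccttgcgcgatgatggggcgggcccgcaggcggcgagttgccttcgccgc
Psmb10: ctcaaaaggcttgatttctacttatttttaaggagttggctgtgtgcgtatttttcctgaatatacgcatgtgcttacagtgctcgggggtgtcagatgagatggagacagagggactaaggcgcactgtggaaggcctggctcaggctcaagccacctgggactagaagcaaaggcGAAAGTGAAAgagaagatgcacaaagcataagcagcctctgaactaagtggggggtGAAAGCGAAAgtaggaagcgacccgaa
Psme1: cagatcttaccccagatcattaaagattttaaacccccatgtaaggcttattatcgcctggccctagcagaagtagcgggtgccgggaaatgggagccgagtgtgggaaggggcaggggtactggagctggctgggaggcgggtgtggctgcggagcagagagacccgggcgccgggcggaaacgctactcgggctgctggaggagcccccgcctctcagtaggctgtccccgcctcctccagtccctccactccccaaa
Psme2: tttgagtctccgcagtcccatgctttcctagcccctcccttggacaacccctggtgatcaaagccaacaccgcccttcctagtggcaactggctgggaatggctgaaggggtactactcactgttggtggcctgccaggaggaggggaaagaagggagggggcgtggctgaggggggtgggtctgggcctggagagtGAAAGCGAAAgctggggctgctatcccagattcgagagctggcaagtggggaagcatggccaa
The capitals of these windows do not overlap one another. Psmb8 holds 1 match to each motif, Psmb10 holds 2 matches to the interferon-stimulated response element and Psme2 holds 1, and the Psmb9 and Psme1 windows hold neither.

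Windows of 300 bases, from 250 before to 50 after the start, were given for 41 of the 43 genes, all but Psma7 and Psmd6. The interferon-stimulated response element was present in 7 of the 41 (Psma4, Psmb3, Psmb8, Psmb10, Psmd7, Psmg4 and Psme2) and in 3.766% of 27457 promoters, and TTCNNNGAA in 3 of the 41 (Psmb8, Psmd3 and Psmd7) and in 8.675% of all. TGACNNNGC, the antioxidant response element, was found in 7 of the 41 (Psma3, Psmb2, Psmb5, Psmd1, Psmd3, Psmd9 and Psme4) and in 12.172% of all, and the CCAAT box, the sequence CCAAT, in 22 of the 41 and in 37.743% of all. These matches describe letters in a window and not binding. On the reference, Psmb8 and Psmb9 lie on chromosome 20 with the peptide transporter gene Tap1 between them and Tap2 beside Psmb8; Psme1 and Psme2 lie on chromosome 15 with Emc9 between them.

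No single proteasome gene passed the test at any time. Of the 43 genes, 0 had an adjusted p under 0.05 in any of the 17 comparisons (limma, Benjamini-Hochberg over all probe sets). The class as a whole was not tested. The genes of the immunoproteasome and of PA28 were nevertheless the lowest class, with a median difference from T0 of -0.95 at 12 h in the average of both fields, while the core lay at 0.08 and the cap at 0.27. These medians moved with single arrays and with the low-spike arrays described in the paragraph on array quality: without the latter they were -0.23, 0.41 and 0.43, and leaving out 1 array at a time they ran from -1.39 to -0.51, from -0.11 to 0.25 and from 0.04 to 0.43. Leaving out CA1 replicate 1 at 12 h gave the lowest values of the core and the cap, and leaving out CA1 replicate 2 at 12 h gave -0.51. Over all 43 genes the median was -0.01 at 30 min, -0.20 at 3 h and -0.02 at 12 h, beside -0.01, 0.02 and -0.03 over all 10411 genes, of which 5745 were lower at 12 h. The lowest adjusted p of any proteasome gene was 0.0591, for Psmb9 at 12 h.

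Among all probe sets, the share that passed in the average of both fields was 0.107% at 30 min, 0.183% at 3 h and 2.07% at 12 h. Within CA1 it was 0.0126%, 0.0063% and 0.208%, and within CA3 it was 0%, 0% and 0.0063%. It was 0% in the comparisons of CA1 with CA3 and of their changes. At an unadjusted p under 0.05 and in the average of both fields, 2 proteasome genes were higher at 30 min (Psmb3 and Psmg3; background 3.13%) and 0 lower (5.72%), and 0 were higher at 3 h (3.25%) and 3 lower (Psma1, Psmb9 and Psmd6; 7.13%). At 12 h, 3 were higher (Psmc1, Psmc2 and Psmg3; 6.98% against 9.91% of all genes) and 4 lower (Psmb8, Psmb9, Psme4 and Psmc3ip; 9.3% against 11.1%). Both shares at 12 h are close to or below the background.

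**Figure D1:**
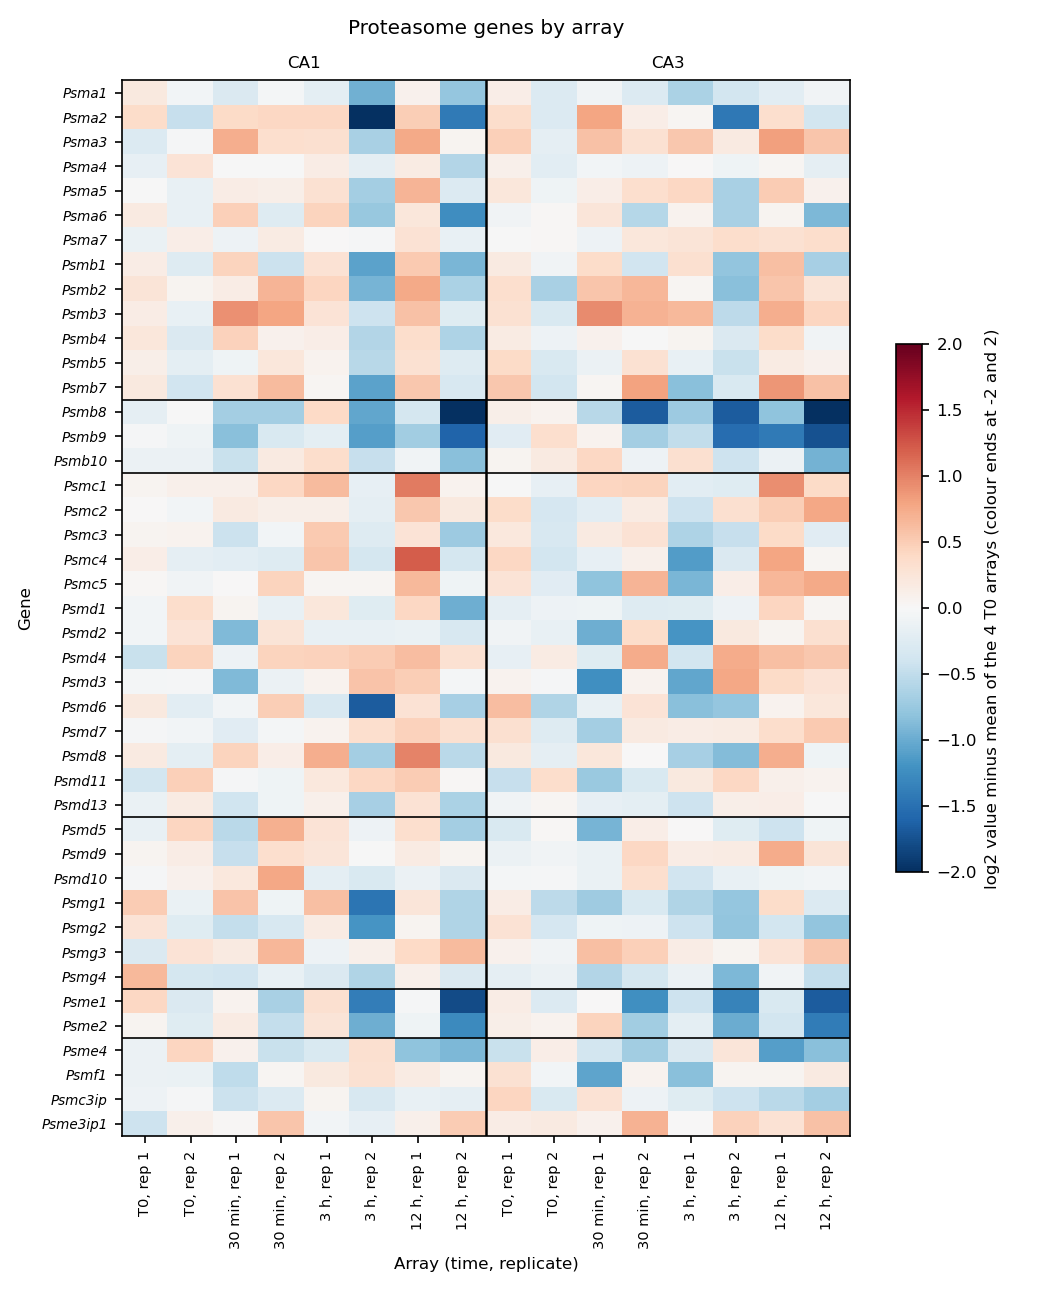
Log2 value of each of the 43 genes (rows, by class) on each of the 16 arrays (columns, by field, time and replicate), as the difference from the mean of the gene's 4 T0 arrays; colour ends at -2 and 2. Psmb8 and Psmb9 are blue on both 12 h arrays of replicate 2 and most core genes are blue on the 3 h array of CA1 replicate 2, where Psma2 lay at 5.80.

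Arrays differed in spike signal and in RNA or labeling quality, within groups and also between times. The mean log2 signal of 27 spike-in probe sets ranged from 4.15 to 6.46 and was lowest on the 4 replicate 2 arrays of 30 min and 12 h (4.15 to 4.37); the replicate 1 arrays of 12 h, at 5.16 and 5.13, also lay below all 4 arrays of T0 (5.96 to 6.46). The GAPDH 3' minus 5' difference, a sign of RNA or labeling quality, ranged from 1.29 to 3.93 and was highest on both 3 h arrays of replicate 2. It was higher on replicate 2 than on replicate 1 in every group, T0 included (2.08 and 3.08 in CA1, 1.93 and 2.62 in CA3). The same difference for actin was 4.54, 5.14, 4.15 and 5.03 at T0 and 3.81, 4.19, 3.79 and 4.10 at 12 h. Proteasome genes spread more between the arrays of a group than others, with a median within-group SD of 0.44 against 0.32 over all genes. At 12 h, replicate 2 lay below replicate 1 in both fields in 30 of the 43 genes (background 32.8%), among them 11 of 13 core genes and 5 of 5 of the immunoproteasome and PA28; at 3 h this was so in 22 of 43 (background 32.7%), with 10 of 13 and 5 of 5. At T0 this was so in 20 of 43 (background 36%), with 9 of 13 core genes and 2 of 5 of the immunoproteasome and PA28. The part of spike signal and RNA quality in these gaps was not tested. All 12 h arrays lay below all T0 arrays in spike signal, so a spike covariate and the 12 h change cannot be fully told apart. Leaving out the 4 low-spike arrays leaves only the replicate 1 array of each field at 30 min and 12 h.

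Of the catalytic subunits of the immunoproteasome, Psmb9 and Psmb8 had the lowest differences of all 43 genes at 12 h. Psmb9, which replaces the Psmb6 subunit, measured 6.70, 6.65, 6.51 and 7.06 at T0. It measured 5.89, 6.42, 6.81 and 6.05 at 30 min and 6.54, 5.63, 6.25 and 5.21 at 3 h, so that both times overlapped T0. At 12 h it measured 6.04, 5.13, 5.32 and 4.99, and all 4 arrays were below the lowest T0 array. The difference at 12 h was -1.36 ± 0.32 (SE; adjusted p = 0.0591), with -1.09 ± 0.45 in CA1 and -1.63 ± 0.45 in CA3 (adjusted p = 0.393 and 0.391), and it missed the threshold. The changes in CA1 and CA3 differed by 0.54 ± 0.64, with an adjusted p of 1 for that difference. When each CA1 array was first averaged with the CA3 array of the same time and number, which share deviations, the adjusted p was 0.342. At 3 h the difference was -0.83 ± 0.32 (adjusted p = 0.461).

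Psmb8, the counterpart of Psmb5, measured 7.93, 8.11, 8.23 and 8.18 at T0, a narrow range. It was already below that range on all 4 arrays at 30 min, at 7.43, 7.43, 7.56 and 6.45, and 1 array stood above it at 3 h (8.52, 7.07, 7.39 and 6.46). At 12 h it measured 7.76, 5.95, 7.31 and 6.09, again with no overlap with T0, and the replicate 2 arrays were far below those of replicate 1 in both fields. The difference from T0 was -0.90 ± 0.47 at 30 min (adjusted p = 0.758) and -1.34 ± 0.47 at 12 h (adjusted p = 0.164), with a 95% interval from -2.38 to -0.30 at 12 h before adjustment.

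Psmb10, the counterpart of Psmb7, was less far from T0. It measured 8.11, 8.12, 8.28 and 8.41 at T0, 7.78, 8.41, 8.65 and 8.12 at 30 min, 8.58, 7.77, 8.55 and 7.82 at 3 h, and 8.16, 7.39, 8.12 and 7.28 at 12 h. At 12 h the replicate 1 arrays lay within the T0 range and the replicate 2 arrays below it, and the difference was -0.49 ± 0.29 (adjusted p = 0.422).

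The catalytic subunits of the constitutive core did not move that way. Psmb5, the chymotrypsin-like subunit, measured 10.64, 10.32, 10.89 and 10.20 at T0, 10.43, 10.74, 10.39 and 10.81 at 30 min, 10.58, 9.96, 10.36 and 10.07 at 3 h, and 10.81, 10.26, 10.68 and 10.60 at 12 h. Its difference at 12 h was 0.08 ± 0.22 (adjusted p = 0.935), and its sign turned with the spike signal as a covariate (-0.12). Psmb7, the trypsin-like subunit, measured 9.50, 8.93, 9.85 and 8.95 at T0, 9.62, 9.93, 9.34 and 10.11 at 30 min, 9.34, 8.24, 8.48 and 9.0 at 3 h, and 9.85, 8.98, 10.18 and 9.89 at 12 h. It overlapped T0 at every time, with 0.42 ± 0.33 at 12 h (adjusted p = 0.593).

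Set against each other on the same array, the mean of Psmb8, Psmb9 and Psmb10 minus the mean of Psmb5 and Psmb7, taken relative to T0, was -0.80 and -1.24 in CA1 and -1.30 and -1.91 in CA3 at 12 h. The 4 T0 arrays spread from -0.48 to 0.53 and the 3 h arrays from -0.82 to 0.19. All 4 arrays at 12 h were thus below the T0 arrays, and at 30 min 3 of the 4 were (-0.77, -0.70 and -1.37, with 0.02 for CA3 replicate 1). This is a description, with no test.

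**Figure D2:**
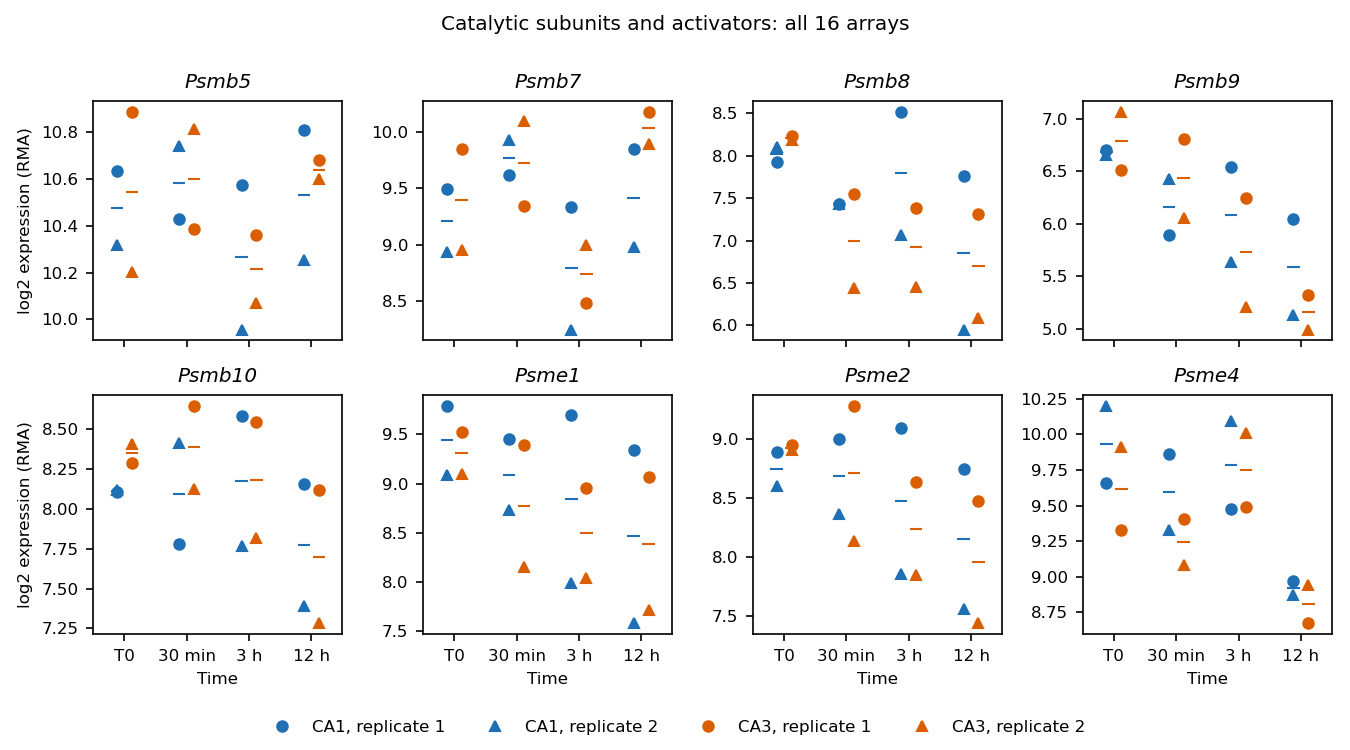
Log2 signal of 8 genes on all 16 arrays against time, each panel with its own scale; colour gives the field, circles are replicate 1, triangles replicate 2 and short lines the mean of each group's 2 arrays. Psmb8, Psmb9 and Psme4 are below all T0 arrays at 12 h, and for Psme1 and Psme2 the replicate 2 arrays fall far below those of replicate 1.

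The PA28 genes split by replicate. Psme1, the PA28 alpha subunit, measured 9.79, 9.09, 9.52 and 9.10 at T0, 9.45, 8.74, 9.39 and 8.15 at 30 min, 9.70, 7.99, 8.96 and 8.04 at 3 h, and 9.35, 7.58, 9.07 and 7.72 at 12 h. Replicate 2 was below replicate 1 in both fields at every time, T0 included. From 30 min on replicate 2 lay below the T0 range, while replicate 1 stayed within or close to it. The difference was -0.44 ± 0.53 at 30 min (adjusted p = 0.983) and -0.95 ± 0.53 at 12 h (adjusted p = 0.393).

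Psme2, the PA28 beta subunit, measured 8.89, 8.60, 8.94 and 8.90 at T0, 9.0, 8.36, 9.28 and 8.14 at 30 min, 9.09, 7.86, 8.63 and 7.85 at 3 h, and 8.74, 7.56, 8.47 and 7.44 at 12 h. Its replicate 2 array was below that of replicate 1 in both fields at every time, and the difference at 12 h was -0.78 ± 0.40 (adjusted p = 0.343).

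Psme4, which encodes the activator PA200, is named because its 12 h arrays did not overlap T0, a choice made after its values were seen. It measured 9.66, 10.20, 9.33 and 9.91 at T0, 9.86, 9.33, 9.41 and 9.08 at 30 min, 9.47, 10.10, 9.49 and 10.01 at 3 h, and 8.97, 8.87, 8.67 and 8.94 at 12 h. The 12 h arrays agreed closely between replicates, and the difference was -0.91 ± 0.22 (adjusted p = 0.0669). Its other 2 probe sets gave -0.35 ± 0.20 and -0.23 ± 0.16 at 12 h (adjusted p = 0.408 and 0.518).

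Leaving out the 4 low-spike arrays leaves only the replicate 1 array of each field at 12 h. The 12 h difference was then -1.05 for Psmb9 and -0.95 for Psme4. For the others it shrank to -0.58 for Psmb8, -0.09 for Psmb10, -0.17 for Psme1 and -0.23 for Psme2. With the spike signal as a covariate on all arrays it was -0.80 for Psmb8, -1.22 for Psmb9, -0.40 for Psmb10, -0.14 for Psme1, -0.11 for Psme2 and -0.65 for Psme4. All 12 h arrays lay below all T0 arrays in spike signal, so the covariate and the 12 h change cannot be fully told apart. With the covariate none of these genes passed the test.

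At 12 h, 4 of the 43 genes had all 4 arrays below all 4 T0 arrays (Psmb8, Psmb9, Psmd10 and Psme4), a share of 9.3% beside 9.4% of all genes, and 0 had all above (background 8.48%). At 30 min Psmb3 was above T0 on all arrays (background 1.97%) and Psmb8 below (4.17%); at 3 h Psmd10, the chaperone gankyrin, was below (4.45%) and 0 genes were above (2.85%). The shares at 12 h are those of the background.

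Markers of microglia, the immune cells of the brain that are known to express immunoproteasome genes, were lower beside these genes. Of 16 markers 15 were lower at 12 h in the average of both fields, with a median of -1.93. Beside 2.07% of all probe sets, 5 of the markers had an adjusted p under 0.05 (C1qa, C1qc, Ctss, Lyz2 and Ptprc). Their mean log2 level per array ranged from 8.39 to 8.84 at T0, from 7.17 to 8.74 at 30 min, from 7.17 to 8.52 at 3 h and from 6.32 to 7.73 at 12 h. Among the defining markers, Cx3cr1 (0.06) and Itgam (-0.07) lay near their T0 level; no marker is at 0 on this scale. Without the low-spike arrays, only the replicate 1 array of each field remains at 12 h. The median was then -1.29, with 15 of the 16 lower. Markers of dividing cells were lower too, 6 of 6 at each later time, with medians of -1.08, -1.56 and -2.08. At 30 min, 3 h and 12 h, beside 0.107%, 0.183% and 2.07% of all probe sets, 1, 2 and 6 of these markers passed. Their mean log2 level per array ranged from 7.06 to 7.68 at T0 and from 5.09 to 5.63 at 12 h. The part of these cells in the values of Psmb8, Psmb9 and the PA28 genes was not tested.

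**Figure D3:**
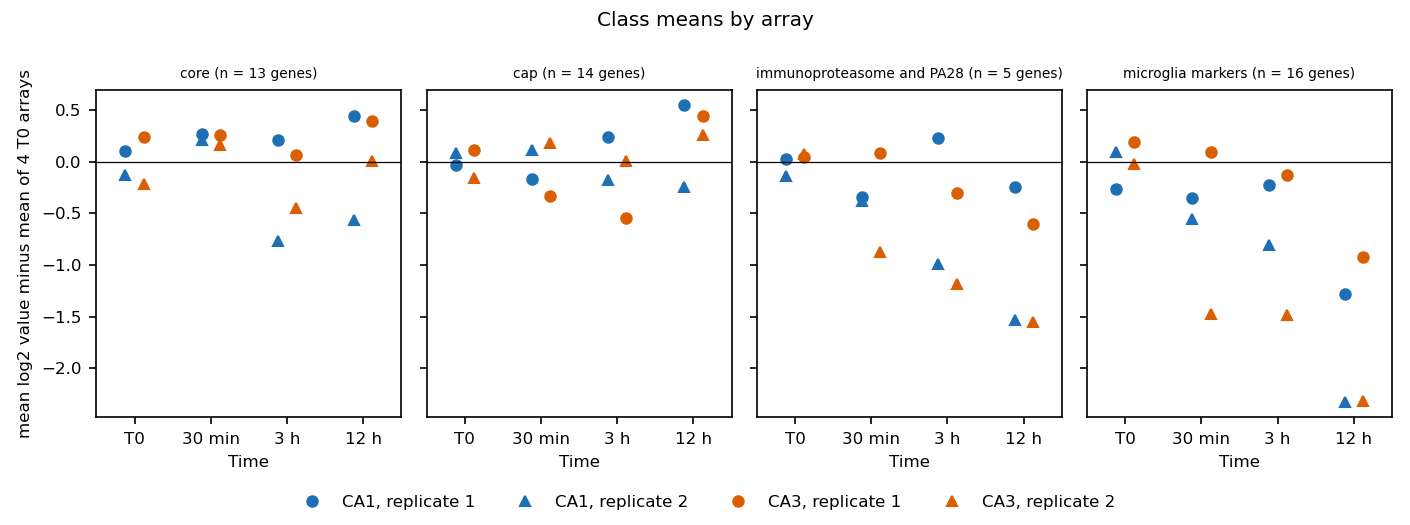
Mean log2 value per array, minus the mean of the 4 T0 arrays, of the core, the cap, the immunoproteasome with PA28 and the microglia markers, against time; colour gives the field and the symbol the replicate. At 12 h the microglia markers lie at -1.28 and -0.92 on the replicate 1 arrays and at -2.33 and -2.32 on those of replicate 2.

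Genes around the immunoproteasome were mostly lower as well. All 8 genes of MHC class I presentation were lower at 12 h, with a median of -0.47. Beside 2.07% of all probe sets, 1 of them passed: Erap1, which trims peptides in the endoplasmic reticulum, fell by 1.48 ± 0.29 (adjusted p = 0.0362). B2m, the light chain of MHC class I, differed by -1.21 ± 0.68 (adjusted p = 0.406) and Tap1, the neighbour of Psmb8 and Psmb9, by -0.62 ± 0.28 (adjusted p = 0.263). Of 11 interferon response genes 10 were lower, with a median of -0.31, and 0 passed. At an unadjusted p under 0.05, 4 of them were lower, beside 11.1% of all genes. A majority of all genes was lower at 12 h too, as counted above with the class medians. With the low-spike arrays left out, only the replicate 1 array of each field remains at 12 h. Then 7 of the 8 presentation genes were lower, with a median of -0.24. With the spike signal as a covariate 5 of 8 were lower, with a median of -0.22 and 0 passing. Gbp2, an interferon-induced GTPase, differed by -2.09 ± 0.72 (adjusted p = 0.155), and Irf8, a factor of microglia and other myeloid cells, by -1.56 ± 0.50 (adjusted p = 0.129).

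In the core alpha ring no gene passed the test. At 30 min 4 of its 7 genes were higher than at T0, at 3 h 2 and at 12 h 3, with medians of 0.05, -0.15 and -0.14. Psma3 stood highest of them at 12 h: it measured 7.06, 7.30, 7.82 and 7.16 at T0, 8.06, 7.67, 7.91 and 7.63 at 30 min, 7.66, 6.68, 7.88 and 7.52 at 3 h, and 8.10, 7.38, 8.16 and 7.89 at 12 h. The CA3 replicate 1 array at T0 overlapped the later times, and the difference was 0.49 ± 0.25 at 30 min (adjusted p = 0.76) and 0.55 ± 0.25 at 12 h (adjusted p = 0.288).

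Psma2, another gene of the alpha ring, was low on both 3 h arrays of replicate 2. It measured 8.29, 7.46, 8.27 and 7.64 at T0, 8.29, 8.33, 8.71 and 8.05 at 30 min, 8.33, 5.80, 7.95 and 6.49 at 3 h, and 8.40, 6.50, 8.25 and 7.55 at 12 h. Its difference at 3 h was -0.77 ± 0.59 (adjusted p = 0.708), and it was 0.22 when both of those arrays were left out; leaving out 1 array at a time gave -1.40 to -0.14.

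Among the structural beta subunits, Psmb3 had the highest difference of all 43 genes at 30 min. It measured 8.72, 8.43, 8.87 and 8.27 at T0, 9.49, 9.37, 9.52 and 9.27 at 30 min, 8.84, 8.16, 9.23 and 8.06 at 3 h, and 9.16, 8.33, 9.29 and 9.01 at 12 h. All 4 arrays at 30 min were above all T0 arrays, by 0.84 ± 0.29 in the mean (adjusted p = 0.456). Psmb2 came next, with 8.89, 8.68, 8.96 and 7.98 at T0, 8.77, 9.31, 9.18 and 9.29 at 30 min, 9.06, 7.70, 8.67 and 7.80 at 3 h, and 9.40, 8.0, 9.19 and 8.88 at 12 h. CA1 replicate 1 at 30 min lay among the T0 arrays, and the difference there was 0.51 ± 0.39 (adjusted p = 0.917). Over the whole core, 9 of 13 genes were higher at 30 min, 11 of 13 lower at 3 h and 8 of 13 higher at 12 h, with medians of 0.16, -0.22 and 0.08.

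Of the 14 cap genes 9 were higher at 12 h in the average of both fields, and none passed the test. In CA3 14 of 14 were higher, with differences from 0.08 to 0.74 and a median of 0.35; in CA1 9 of 14 were higher, with a median of 0.24. Over all genes 4770 of 10411 were higher in CA3 and 4753 in CA1, with medians of -0.03 and -0.04. The mean of the cap genes relative to T0 was 0.54, -0.24, 0.44 and 0.26 on the 12 h arrays, so CA1 replicate 2 went the other way. Markers of excitatory neurons were also higher at 12 h, 8 of 8 with a median of 2.19. Beside 2.07% of all probe sets, 2 of them passed in the fit that takes the arrays as unpaired. The mean log2 level of these markers per array spread from 5.96 to 8.60 at T0, a span wider than that median. At 12 h it ran from 8.63 to 9.38. The part of these markers in the cap values was not tested. In the average of both fields the 5 ATPase genes had a median of 0.50. Psmc1, an ATPase of the base ring, measured 8.36, 8.41, 8.30 and 8.15 at T0, 8.40, 8.72, 8.73 and 8.75 at 30 min, 8.94, 8.14, 8.09 and 8.06 at 3 h, and 9.34, 8.37, 9.24 and 8.68 at 12 h. CA1 replicate 2 at 12 h fell among the T0 arrays, and the difference was 0.60 ± 0.24 (adjusted p = 0.206).

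Psmd4, the ubiquitin receptor of the cap, measured 7.42, 8.30, 7.70 and 8.03 at T0, 7.76, 8.30, 7.62 and 8.60 at 30 min, 8.33, 8.37, 7.50 and 8.60 at 3 h, and 8.48, 8.17, 8.46 and 8.40 at 12 h. Its T0 arrays already spread by more than the difference, which was 0.34 ± 0.30 at 3 h (adjusted p = 0.738) and 0.52 ± 0.30 at 12 h (adjusted p = 0.419).

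Of the 6 lid genes, which brace the cap and hold the deubiquitinating module, 4 are named by their extreme values. Psmd3 measured 7.44, 7.45, 7.54 and 7.45 at T0, 6.59, 7.35, 6.24 and 7.54 at 30 min, 7.53, 8.03, 6.42 and 8.25 at 3 h, and 7.96, 7.43, 7.86 and 7.74 at 12 h. It was low on both replicate 1 arrays of 30 min and on CA3 replicate 1 of 3 h, and the difference at 30 min was -0.54 ± 0.39 (adjusted p = 0.904). Psmd6 measured 8.32, 7.91, 8.74 and 7.51 at T0, 8.06, 8.62, 7.96 and 8.39 at 30 min, 7.80, 6.46, 7.28 and 7.34 at 3 h, and 8.41, 7.46, 8.19 and 8.35 at 12 h. At 3 h it was lowest in CA1 replicate 2 and differed by -0.90 ± 0.35 (adjusted p = 0.462).

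The other two lid genes were among the highest at 3 h. Psmd7 measured 8.94, 8.91, 9.29 and 8.70 at T0, 8.74, 8.91, 8.27 and 9.13 at 30 min, 9.03, 9.29, 9.10 and 9.13 at 3 h, and 9.43, 9.28, 9.31 and 9.49 at 12 h, with 0.18 ± 0.19 at 3 h (adjusted p = 0.778), and 3 of its 4 arrays at 3 h lay within the range of T0. Psmd11 measured 8.80, 9.63, 8.70 and 9.51 at T0, 9.14, 9.07, 8.41 and 8.86 at 30 min, 9.37, 9.58, 9.36 and 9.57 at 3 h, and 9.67, 9.18, 9.27 and 9.23 at 12 h. Its 3 h arrays lay within the range of T0, and the difference was 0.31 ± 0.23 (adjusted p = 0.704); its second probe set gave -0.11 ± 0.20.

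**Figure D4:**
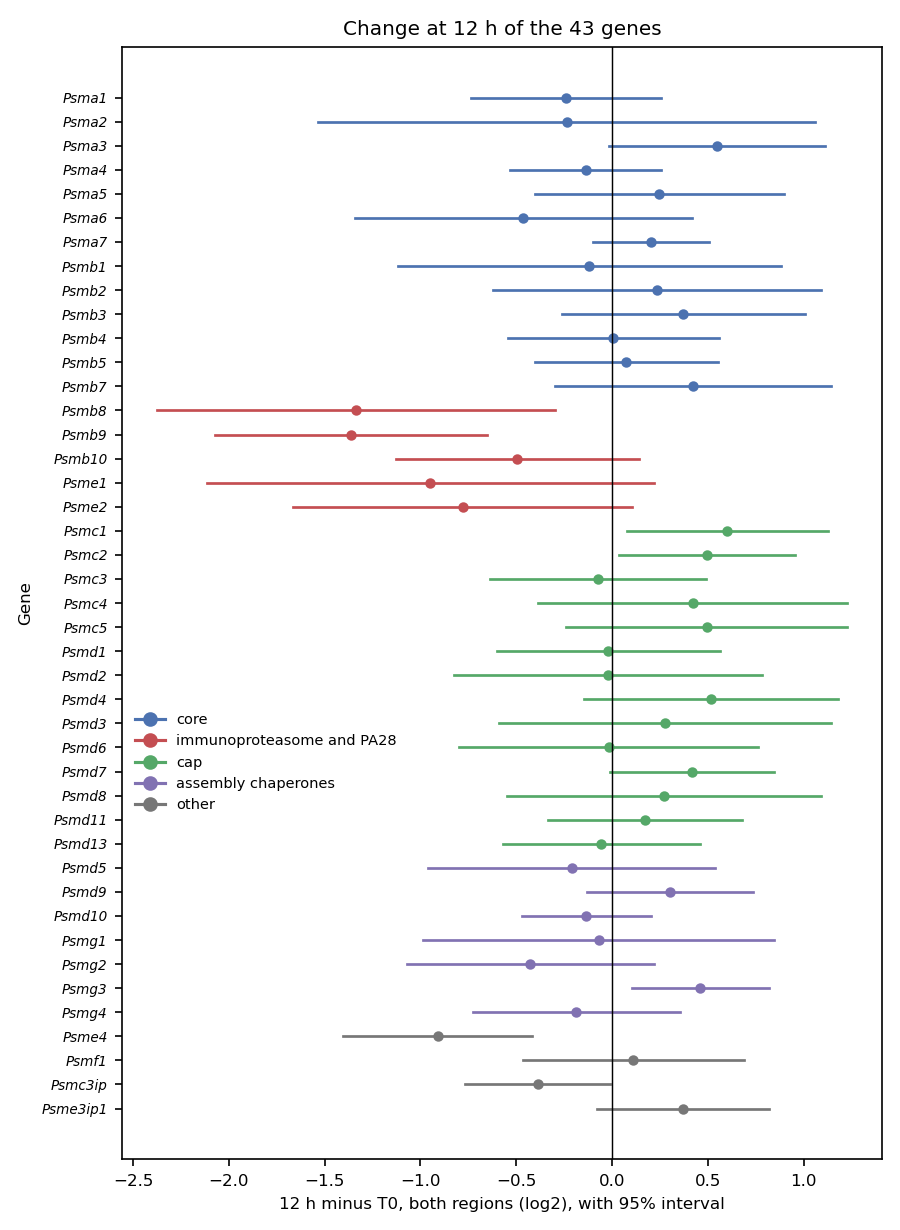
Difference between 12 h and T0 in the average of both fields (log2, horizontal axis) of each of the 43 genes, with its 95% interval before adjustment, coloured by class. Psmb9 (-1.36), Psmb8 (-1.34), Psme1 (-0.95) and Psme4 (-0.91) lie lowest, and Psmc1 (0.60) and Psma3 (0.55) highest.

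The assembly chaperones had medians of -0.13 at 30 min, -0.26 at 3 h and -0.13 at 12 h. Psmg3, a chaperone of the alpha ring, had an unadjusted p under 0.05 at both 30 min and 12 h, with 0.48 ± 0.16 (adjusted p = 0.448) and 0.46 ± 0.16 (adjusted p = 0.164). Psmf1, a regulator known as an inhibitor of the core in vitro, differed by 0.11 ± 0.26 at 12 h (adjusted p = 0.919).

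No proteasome gene passed the test between CA1 and CA3. Of 4 measured markers of CA1 pyramidal cells 4 were higher in the arrays labelled CA1 (median 0.62), and of 2 of CA3 pyramidal cells 1 was lower there, none past the threshold. Averaged over the 4 times, CA1 minus CA3 ranged from -0.26 to 0.32 over the 43 genes with a median of 0.01, and the adjusted p was 1 for each. The highest were Psmb8 (0.32, 95% interval -0.42 to 1.05), Psmg1 (0.29, -0.35 to 0.94) and Psmd5 (0.26, -0.27 to 0.79), and the lowest Psma3 (-0.26, -0.65 to 0.14), Psme3ip1 (-0.22, -0.54 to 0.09) and Psma2 (-0.19, -1.10 to 0.73). These intervals treat the arrays as unpaired. In the fit on the 8 differences between paired arrays the standard errors were smaller, 0.14 for Psmb8, 0.20 for Psmg1, 0.14 for Psmd5, 0.13 for Psma3, 0.11 for Psme3ip1 and 0.17 for Psma2, and none of the 43 genes passed; among these 6 the lowest adjusted p was 0.48, for Psmb8. Psmg1, a chaperone of the alpha ring, measured 8.36, 7.71, 7.98 and 7.32 at T0, 8.41, 7.76, 7.12 and 7.54 at 30 min, 8.45, 6.39, 7.24 and 7.07 at 3 h, and 8.09, 7.23, 8.20 and 7.56 at 12 h.

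Psmd5, a chaperone of the cap base, measured 7.62, 8.19, 7.46 and 7.79 at T0, 7.22, 8.48, 6.83 and 7.90 at 30 min, 8.04, 7.66, 7.77 and 7.52 at 3 h, and 8.10, 7.09, 7.36 and 7.68 at 12 h. Psme3ip1 measured 7.25, 7.78, 7.81 and 7.85 at T0, 7.70, 8.22, 7.76 and 8.36 at 30 min, 7.62, 7.51, 7.68 and 8.14 at 3 h, and 7.77, 8.18, 7.97 and 8.26 at 12 h. It was lower in CA1 in 8 of 8 pairs of the same time and number (1 of 43 genes; background 1.17%), and 0 genes were higher in CA1 in all pairs (1.57%). Within CA1, 0 proteasome genes had an unadjusted p under 0.05 at 30 min (background 2.3% higher and 3.48% lower) and 0 at 3 h (1.78% and 3.59%); within CA3, Psmg3 was higher at 30 min (1.27%; 0 lower, 2.16%) and Psmb9 lower at 3 h (2.91%; 0 higher, 1.43%). Within CA1 and CA3 the counts at an unadjusted p under 0.05 at 12 h were 1 higher and 2 lower in CA1 (background 5.84% and 7.14%) and 0 higher and 4 lower in CA3 (3.53% and 4.33%). For CA1 minus CA3 averaged over the times, 0 genes had an unadjusted p under 0.05 (background 2.28% higher and 1.49% lower). At single times there were 0 as well, beside 0.403% and 0.317% at T0, 1.22% and 1.06% at 30 min, 0.951% and 0.73% at 3 h and 0.682% and 0.778% at 12 h. The difference of the changes between the fields also gave 0, beside 0.327% and 0.596% at 30 min, 0.154% and 0.221% at 3 h and 0.298% and 0.202% at 12 h.

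Among other genes of the pathway, few of those that feed the proteasome passed the test. Of 12 listed genes of ubiquitin and its activation 7 were measured. At 12 h, beside 2.07% of all probe sets, 1 of them passed: Ube2d1, a ubiquitin-conjugating enzyme, was higher (0.75 ± 0.14, adjusted p = 0.0287). Of 17 genes of ubiquitin recycling and shuttling 13 were measured, 11 were higher at 12 h, with a median of 0.22, and 0 passed. The largest were Uchl1, a neuronal deubiquitinase (2.24 ± 0.79, adjusted p = 0.164), and Nploc4, a cofactor of the segregase Vcp (0.95 ± 0.26, adjusted p = 0.0893). The part of the excitatory neuron markers, higher at the same time, in the value of Uchl1 was not tested.

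Of 9 proteasome genes with other names, such as the assembly factor Pomp and the ubiquitin receptor Adrm1, 7 were measured and all were lower at 12 h, with a median of -0.29 and 0 past the threshold. Of 10 listed genes that regulate proteasome genes 8 were measured and 0 passed. Nfe2l1, which drives proteasome genes when the proteasome is blocked, differed by 0.20 ± 0.13 (adjusted p = 0.485), and Nfe2l2, the oxidative stress factor NRF2, by -1.75 ± 0.67 (adjusted p = 0.198).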

How the data were processed

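RNA of 16 rat slice culture samples was labeled in 2 cycles, per the labels' protocols, and hybridised to 1 array each. The authors deposited log2 values made with RMA, per the submitters' processing notes, without a version, so background correction, quantile normalization and probe summary were already done. Of 15923 probe sets, 57 controls were left out and 15866 tested; 12783 have 1 gene symbol, 312 several and 2771 none in the platform annotation. Group means were fitted with limma 3.58.1 (R 4.3.3; 8 residual and 2.55 prior degrees of freedom), and p-values were adjusted by Benjamini-Hochberg over all probe sets of a comparison (threshold 0.05). Intervals are 95%.

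The number of arrays limits the precision. Arrays of both fields that share a time and a number deviated together (4 correlations, 0.57 to 0.67). They were treated as pairs in an alternative. The main fit counts them as separate arrays, so its p-values for changes over time can be too small. For the marker lists and the related genes, p-values of the pair fit are not given. Arrays of 1 field that share a number also deviated together among the later times (6 correlations, 0.30 to 0.66). Between T0 and the later times this was weaker (6 correlations, -0.24 to 0.31). The 3 under 0.1 were all of CA3, and those of CA1 were 0.25, 0.31 and 0.21. Values per array are given for catalytic and PA28 genes and for the 3 highest and 3 lowest members of each time change and of CA1 minus CA3; Psme4 and Psmg3 were added after their values were seen. Other classes are given by counts. The members and all gene lists were chosen with earlier results of these data known. Promoters come from RefSeq (GRCr8). The fit was tested on simulated data with noise drawn separately for each array. That test does not cover the shared deviations of paired arrays.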

Additional observations from a re-analysis of the deposited data

Results flagged for a closer look

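Psmd2, a scaffold subunit of the cap base, differed in sign between the fields at 12 h: both CA1 arrays (9.48 and 9.30) lay below the mean of the CA1 arrays at T0 (9.56 and 9.89) and both CA3 arrays (9.68 and 9.94) above the mean of those of CA3 (9.55 and 9.48). The difference of the changes, CA1 minus CA3, was -0.63 ± 0.73 (SE), and limma's interaction test gave an adjusted p of 1, so it did not exceed the spread between arrays.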

How the results depend on the processing

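Up to 27 alternatives were run for each result: other scaling (cyclic loess, median centring), dim probe sets left out, the mean of a gene's probe sets, a trended prior, the spike signal as a covariate, blocks, and arrays left out. With the replicate number as a block, 5 genes passed at 12 h (Psmb8, Psmb9, Psme1, Psme2 and Psme4) and fell, beside 1302 of 15866 probe sets (8.21%). The check of pairing bears this block out among the later times, only weakly for T0 in CA1 and not for T0 in CA3. No gene passed in another comparison under this block. All probe sets that passed went from 17 to 49 at 30 min and from 29 to 92 at 3 h. At an unadjusted p under 0.05 the number of proteasome genes went from 2 to 5 at 30 min, from 3 to 8 at 3 h and from 7 to 11 at 12 h. It went from 3 to 6 in CA1 and from 4 to 8 in CA3 at 12 h. The share of all genes at that unadjusted p under this block is not given, so these counts are no result about proteasome genes. Averaging or correlating both fields of a pair (correlation 0.39) gave 0 genes that passed. Without both replicate 2 arrays of 3 h, only 1 array of each field remained at 3 h, and no count is drawn from that fit. The 12 h difference of Psmb9 was unchanged there, at -1.36. Over all alternatives its adjusted p in limma ran from 0.0219 to 0.475. With the 4 low-spike arrays left out, the median at 12 h was 0.30 over the 43 genes and -0.23 for the immunoproteasome and PA28; the difference of Psme1 at 30 min was 0.043 (0.11 with the spike covariate). Psmb5 at 12 h was -0.12 with the spike covariate, and Psma2 at 3 h was 0.22 without the replicate 2 arrays of 3 h. Leaving out 1 array at a time moved Psmb5 at 12 h from -0.10 to 0.25 and Psma2 in CA1 minus CA3 from -0.50 to 0.13; the median at 12 h lay between -0.18 and 0.24 over the 43 genes and between -1.39 and -0.51 for the immunoproteasome and PA28, and 0 genes passed. The other counts and medians kept their direction or moved by less than the spread between arrays. The within-field comparisons could not be made on the averaged pairs. The cause of these dependences was not tested.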
